A study of Homo sapiens with 12 samples.

Results

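Long noncoding RNAs (lncRNAs) are transcripts that are spliced and processed much like messenger RNAs but are not known for a protein product. Some act in the nucleus, some carry smaller RNAs in their introns or exons, and some lie beside a coding gene with which they share regulatory sequence. Described here are 10 of them in MOLM14 cells: HOTAIRM1, HOXA-AS2 and HOXA-AS3 of the HOXA locus, OLMALINC beside the desaturase gene SCD, the nuclear RNAs NEAT1 and MALAT1, the small nucleolar RNA hosts GAS5 and SNHG1, and the microRNA hosts MIR155HG and MIR223HG. They are 10 of the 61487 gene identifiers in the count table, found by matching each identifier to its symbol, and each is represented by 1 identifier. The list has no threshold: it was chosen by symbol with levels and fold changes of these same 12 libraries already seen, and it is named for HOTAIRM1 and OLMALINC. Values of those 2 RNAs are therefore a description and carry no test. The other members are tested over the whole table, but their choice was not blind to these libraries either.

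MOLM14 is a human acute myeloid leukemia line of monocytic character with a KMT2A fusion. All 4 groups carried the same construct (genotype shRIP140), a short hairpin RNA that doxycycline (DOX) switches on. Its target is RIP140, a coregulator of nuclear receptors whose gene is NRIP1. Cells were grown in serum free of tetracycline, and the groups were untreated cells, cells given 1 µM all-trans retinoic acid (ATRA) over 48 h, cells with DOX at 50 ng/mL, and cells with both, called combined below. ATRA is a vitamin A derivative that activates retinoic acid receptors and drives maturation of some myeloid leukemia cells. Each group had 3 libraries of total RNA, stated to be biological replicates. The labels do not say what separated one replicate from the next, so a p-value measures the spread between these libraries. No group with DOX but without the hairpin is among the samples, so the hairpin and DOX itself cannot be told apart.

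Library totals ran from 2685984 to 19358619 counts, and DOX replicate 3 had the fewest. Levels are in CPM, counts per 1000000 after TMM scaling, and changes are log2 fold changes ± standard error from edgeR. NRIP1 lay at 59.7, 58.9 and 53.3 CPM in untreated cells and at 38.4, 41.1 and 51.9 CPM with ATRA. It lay at 19.2, 14.99 and 15.7 CPM with DOX and at 15.9, 20.9 and 19.95 CPM in the combined group, below every library without DOX. Of 10 markers of myeloid blasts, 9 exceeded 1 CPM in every library and CD14 did in none. The 8 markers of T, erythroid, epithelial and stromal cells and the B cell marker MS4A1 stayed under 1 CPM in every library. The share of counts on mitochondrial ribosomal RNA differed between libraries: it was 2.54, 2.85 and 4.60% without either agent and 2.09, 2.74 and 2.64% with ATRA. With DOX it was 2.18, 1.02 and 1.30%, and with both agents 1.98, 2.02 and 1.23%. Every DOX library had a smaller share than every untreated one, and every combined library a smaller share than every ATRA one. A fit with a term for that share therefore cannot tell the share apart from DOX in those comparisons. Those shares stand beside the results they move with. In bulk RNA, fewer cells of a type and less RNA per cell cannot be told apart.

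Sequences of 4 elements are given because the results turn on their genes. The opening pair are the promoters of OLMALINC and of SCD, which lies next to it and whose level moved with it. Each runs from 250 bases before to 50 bases after the start in RefSeq (GRCh38.p14), at chr10:100373326-100373625 and chr10:100346983-100347282, both on the plus strand. Capitals mark the letters CCAAT, the core of the element bound by NF-Y.
OLMALINC promoter: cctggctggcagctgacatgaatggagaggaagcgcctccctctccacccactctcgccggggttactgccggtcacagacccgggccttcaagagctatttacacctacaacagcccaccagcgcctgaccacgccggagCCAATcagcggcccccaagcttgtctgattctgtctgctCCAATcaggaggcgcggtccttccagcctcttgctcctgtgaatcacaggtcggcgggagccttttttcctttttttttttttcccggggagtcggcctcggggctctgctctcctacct
SCD promoter: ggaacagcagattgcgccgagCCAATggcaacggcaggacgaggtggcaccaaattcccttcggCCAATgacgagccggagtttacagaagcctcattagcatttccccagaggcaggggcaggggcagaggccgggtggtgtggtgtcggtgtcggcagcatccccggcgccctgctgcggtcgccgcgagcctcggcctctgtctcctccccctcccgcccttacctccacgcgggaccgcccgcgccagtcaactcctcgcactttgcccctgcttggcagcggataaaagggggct
The other 2 are the main mature microRNAs made from MIR155HG and MIR223HG. They map to chr21:25573983-25574006 and chrX:66018937-66018958, both on the plus strand, and capitals mark the seed, bases 2 to 8, which pairs with target messages.
hsa-miR-155-5p: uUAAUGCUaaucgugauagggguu
hsa-miR-223-3p: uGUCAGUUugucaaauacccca
The microRNAs have different seeds. The rows for the MIR155 and MIR223 genes held 0 counts in all libraries, so the values below describe the host transcripts and say nothing of the mature microRNAs.

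Per kilobase of annotated exon (GENCODE 29), the untreated levels of the 10 RNAs spanned a wide range. MALAT1 had 169 ± 75.6 CPM per kilobase (mean ± SD, n = 3) and GAS5 had 164 ± 6.38, and their libraries overlapped. MIR223HG at 25.1 ± 7.73 and SNHG1 at 23.9 ± 0.46 CPM per kilobase came next and overlapped as well. A further set, whose libraries also overlapped, held MIR155HG at 5.73 ± 0.70, OLMALINC at 5.47 ± 0.28 and NEAT1 at 4.97 ± 2.19 CPM per kilobase. HOXA-AS3 (2.74 ± 0.61), HOXA-AS2 (1.69 ± 0.30) and HOTAIRM1 (0.41 ± 0.14 CPM per kilobase) had the lowest levels, and the last 2 were apart from their neighbours in every library. Annotated exon length counts every isoform, so a gene such as NEAT1 whose short form predominates is understated on this scale.

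**Figure D1:**
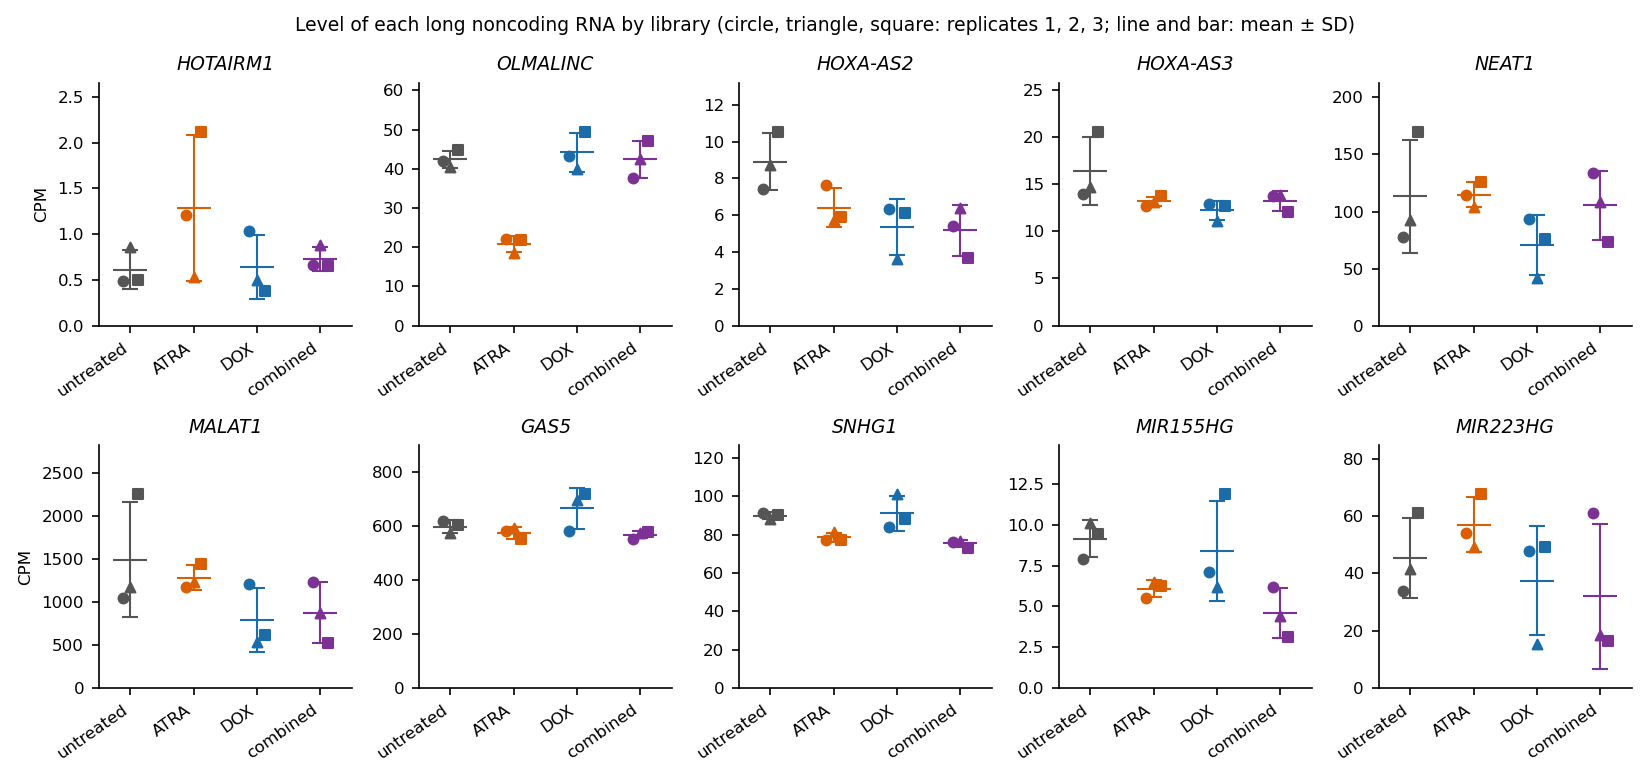
Level of each of the 10 RNAs in CPM (y axis, from 0) by group (x axis), with replicates 1, 2 and 3 as circle, triangle and square and the mean ± SD as line and bar. OLMALINC is lower in the 3 ATRA libraries (18.6 to 22.1 CPM) than in all others (37.8 to 49.5 CPM), whereas untreated replicate 3 is the highest library for MALAT1 (2259 CPM) and NEAT1 (170 CPM).

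All 10 RNAs passed the filter on low counts, which left 16104 genes, 2993 of them lncRNA genes in GENCODE 29. A gene is called where its adjusted p is under 0.05 by edgeR's quasi-likelihood test with Benjamini-Hochberg adjustment over those 16104 genes. The counts below are of the 8 members other than HOTAIRM1 and OLMALINC. With ATRA against untreated cells, 0 of the 8 were called higher and 1 lower, MIR155HG, where 13.2% of all genes and 14.3% of lncRNA genes were called lower and 15.7% of all genes higher. With DOX against untreated cells, 0 were called higher and 3 lower, HOXA-AS2, HOXA-AS3 and MALAT1, where 7.1% of all genes and 8.12% of lncRNA genes were called lower and 8.08% of all genes higher. In the combined group against DOX alone, 0 were called higher and 1 lower, SNHG1, where 8.24% of all genes and 6.62% of lncRNA genes were called lower and 10.7% of all genes higher. In the combined group against ATRA alone, 0 of the 8 were called by edgeR or by DESeq2 and 1 had an unadjusted p under 0.05. There 4.43% of all genes and 1.57% of lncRNA genes were called in either direction, with 1.89% of all genes higher and 2.54% lower. The interaction is how far the ATRA effect in cells with DOX exceeds that in cells without. For it 0 of the 8 were called by edgeR or by DESeq2 and 1 had an unadjusted p under 0.05. Over all genes 0.267% were called in either direction, 0.0435% higher and 0.224% lower. Of lncRNA genes 0.0668% were called in either direction and 0.0334% higher. Since the members were chosen with these values known, nothing is read from their share against the background. The median log2 change of the 10 was -0.21 for ATRA and -0.35 for DOX against untreated, beside -0.01 and 0.01 over all genes tested. The contrasts share groups, so their values are not independent of each other.

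**Figure D2:**
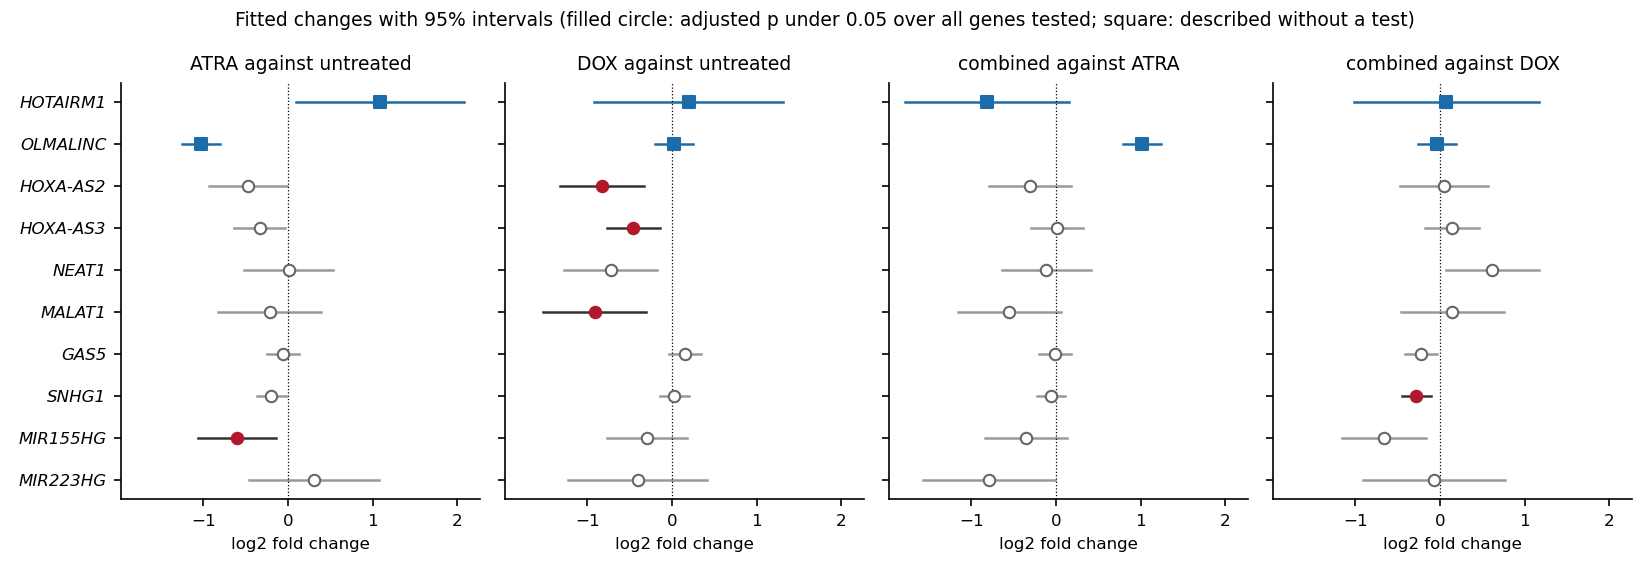
Fitted log2 fold change (x axis) of each RNA (y axis) in 4 comparisons, with 95% intervals; filled circles have an adjusted p under 0.05 over all genes tested, and squares mark HOTAIRM1 and OLMALINC, which are described without a test. OLMALINC lies at -1.02 for ATRA against untreated and at 1.02 for combined against ATRA, values known when it was listed. Its intervals are narrow, while those of HOTAIRM1, MALAT1, NEAT1 and MIR223HG are wide.

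With ATRA alone the level of OLMALINC was 49.2% of the untreated level, and with both agents it stood in the range of cells given neither or DOX alone. It is a long intergenic RNA named for the oligodendrocyte lineage and lies at chr10:100373513-100454043 on the plus strand. The 3 untreated libraries had 42.1, 40.5 and 44.8 CPM and the 3 ATRA libraries 22.1, 18.6 and 21.8 CPM. With DOX it had 43.3, 39.9 and 49.5 CPM, and with both agents 37.8, 42.5 and 47.2 CPM. All 3 ATRA libraries were thus below all 9 others, and the other groups overlapped each other. The log2 change was -1.02 ± 0.11 for ATRA against untreated (95% interval -1.25 to -0.80) and 0.03 ± 0.11 for DOX against untreated (-0.20 to 0.25). It was 1.02 ± 0.11 for combined against ATRA (0.79 to 1.24) and -0.03 ± 0.11 for combined against DOX (-0.25 to 0.19). The interaction was 0.99 ± 0.15 (0.67 to 1.31), and 0.70 with every library thinned to the smallest total. None of its 7763 annotated exon bases is shared with another gene, so no overlapping neighbour enters its count.

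SCD, stearoyl-CoA desaturase, which puts the double bond into newly made fatty acids, ends 8679 bases before OLMALINC starts and is read from the same strand. It moved the same way by a smaller amount. Untreated libraries held 1002, 1092 and 1055 CPM of SCD, ATRA libraries 728, 682 and 775, DOX libraries 1040, 1004 and 968, and combined libraries 921, 1031 and 989 CPM. Again the ATRA libraries lay below all others. SCD fell with ATRA by 0.53 ± 0.09 on the log2 scale (adjusted p = 0.00014, edgeR) and rose in the combined group against ATRA by 0.43 ± 0.09 (adjusted p = 0.0076), a call that was lost without ATRA replicate 2 or without combined replicate 2. The interaction of SCD was 0.49 ± 0.13 and did not pass by edgeR (adjusted p = 0.116), whereas DESeq2 called it. SCD was tested as a listed neighbour of OLMALINC, on a list written with earlier results of these data known.

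**Figure D3:**
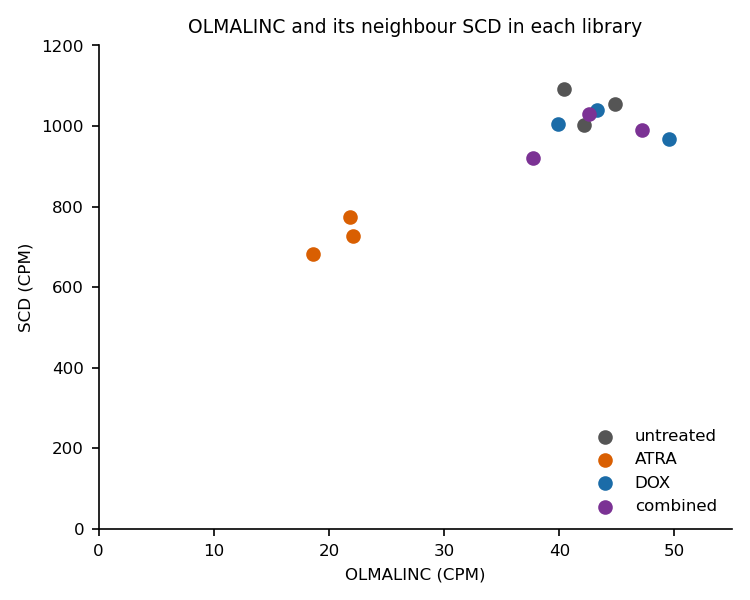
SCD (y axis, CPM) against OLMALINC (x axis, CPM) in each of the 12 libraries, coloured by group. The 3 ATRA libraries form a set of their own at 682 to 775 CPM of SCD and 18.6 to 22.1 CPM of OLMALINC, and the 9 libraries of the other groups overlap.

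Among 12037 genes with a mean of at least 2 CPM, the 3 whose log2 CPM over the 12 libraries most resembled that of OLMALINC were JPH2 (Pearson r = 0.94), SCD (r = 0.94) and SLC2A3 (r = 0.93). JPH2 encodes junctophilin 2, which ties the plasma membrane to the endoplasmic reticulum, and SLC2A3 the glucose transporter GLUT3. These r are a description: the 12 points share groups and normalisation, and the ATRA libraries stand apart from the rest. The log2 change of JPH2 was -1.26 ± 0.15 with ATRA and 1.09 ± 0.15 in combined cells against ATRA, with no test since these values chose it.

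Of 12 genes listed as neighbours of OLMALINC or as sterol-regulated, 10 were tested. With ATRA, 2 rose and 3 fell, where 15.7% of all genes rose and 13.2% fell. The list was written with earlier results of these data known, so nothing is read from its counts. FASN, the fatty acid synthase, fell by 0.43 ± 0.08. INSIG1, which holds the sterol sensor in the endoplasmic reticulum, fell by 0.23 ± 0.08, while the neighbour BLOC1S2 rose by 0.83 ± 0.11. In combined cells against ATRA, 2 rose, SCD and SREBF1, and 0 fell, where 1.89% of all genes rose and 2.54% fell. SREBF1 encodes SREBP-1, the transcription factor of fatty acid synthesis, and rose by 0.47 ± 0.12 (adjusted p = 0.026, edgeR), a call lost without any one ATRA replicate, without combined replicate 2 or 3, or with a term for mitochondrial ribosomal RNA. The median log2 change of the list was -0.21 for ATRA and 0.03 for combined against ATRA, beside -0.01 and -0.00014 over all genes.

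The CCAAT letters seen above occur 2 times in the OLMALINC window, 109 and 70 bases before the start, and 2 times in the SCD window, 229 and 186 bases before it. Searched on both strands, CCAAT is in 34.6% of 35116 RefSeq promoter windows of this length, and 10.8% hold 2 or more. AGGTCA, the core letters of the element that retinoic acid receptors and their partners bind, is in 13.8% of windows and in neither of these. A match or its absence in a window says only which letters are there.

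HOTAIRM1 was close to the limit of detection. It is read from the plus strand at chr7:27095647-27100265 and is known as a transcript of the HOXA locus that is linked to retinoic acid and to myeloid maturation. Its counts were 5, 10 and 9 without either agent and 19, 5 and 22 with ATRA, then 13, 9 and 1 with DOX and 11, 11 and 6 with both. As levels these were 0.483, 0.857 and 0.497, then 1.21, 0.531 and 2.12, then 1.03, 0.494 and 0.384, and 0.661, 0.883 and 0.651 CPM. ATRA replicates 1 and 3 were the highest of the 12 libraries, while ATRA replicate 2 lay within the untreated range, so the groups overlapped. Summed over a group, the level was 0.60 CPM in untreated (exact 95% Poisson interval 0.38 to 0.89) and 1.29 CPM in ATRA cells (0.95 to 1.73). It was 0.69 CPM with DOX (0.44 to 1.03) and 0.73 CPM in combined cells (0.49 to 1.06), and these intervals cover counting error only. The log2 change with ATRA was 1.09 ± 0.47 (95% interval 0.10 to 2.08). For DOX against untreated it was 0.20 ± 0.54 (-0.92 to 1.32) and for combined against ATRA -0.81 ± 0.46 (-1.78 to 0.15).

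Of the 1496 exon bases of HOTAIRM1, 672 are shared with other entries of GENCODE 29, most of them short same-strand entries that held 0 counts. How reads on such bases were assigned is not given in the sources used here, so the level of HOTAIRM1 may be understated. The genes most like HOTAIRM1 among 12038 compared were SPAG9 (r = 0.85), ITPRIP (r = 0.85) and MYCL (r = 0.84), given as a description that rests on counts as low as 1 per library. MYCL is a MYC family transcription factor, and its log2 change with ATRA was 0.60 ± 0.16.

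HOXA-AS2 and HOXA-AS3, antisense RNAs of the middle of the HOXA cluster, were lower with DOX than in untreated cells. HOXA-AS2 lies at chr7:27107777-27134302 and HOXA-AS3 at chr7:27129977-27155928, both on the plus strand, facing the HOXA coding genes on the minus strand. HOXA-AS2 had 7.44, 8.74 and 10.6 CPM without either agent and 7.63, 5.74 and 5.88 CPM with ATRA. DOX libraries had 6.37, 3.62 and 6.14 CPM and combined ones 5.41, 6.42 and 3.69 CPM. It fell with DOX by 0.83 ± 0.24 on the log2 scale (adjusted p = 0.0255, edgeR), and the 3 DOX libraries lay below the 3 untreated ones. The call was lost without untreated replicate 3 (-0.67), without DOX replicate 2 (-0.51), with libraries thinned to the smallest total (-0.65) and with a term for mitochondrial ribosomal RNA (-0.19).

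HOXA-AS3 had 13.9, 14.7 and 20.6 CPM in untreated cells, against 12.7, 13.1 and 13.7 CPM with ATRA. With DOX it had 12.9, 11.1 and 12.7 CPM and with both agents 13.8, 13.8 and 12.04 CPM. It fell with DOX by 0.46 ± 0.15 on the log2 scale (adjusted p = 0.0439, edgeR). The call was lost without untreated replicate 3 (-0.24, adjusted p = 0.333) and with DESeq2 (adjusted p = 0.0649). It was also lost with library size alone, no filter, only the groups compared, a term for replicate number, or thinning. Leaving out any single ATRA replicate, DOX replicate 2 or 3, or combined replicate 2 lost the call as well. Apart from untreated replicate 3, all values lay between 11.1 and 14.7 CPM. Untreated replicate 3 also had the highest share of mitochondrial ribosomal RNA and DOX replicate 2 the lowest, and with a term for that share in the fit HOXA-AS3 changed by -0.02. Of the annotated exon bases of HOXA-AS3, 39.3% face an exon on the other strand, with 1507 bases against HOXA7 and 505 against HOXA6. For HOXA-AS2 the share is 11.9%, with 374 bases against HOXA3 and 254 against HOXA4. The strand setting of the counting is not given in the sources used here, so reads of these RNAs and of the facing exons cannot be told apart.

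Of the 16 genes listed for the HOXA cluster, 14 were tested. With DOX, 0 passed in either direction by edgeR or DESeq2, 4 had an unadjusted p under 0.05 and the median was -0.004, so the listed genes gave no call in the comparison in which HOXA-AS2 and HOXA-AS3 did, though the difference between them was not tested. Over all genes, 15.2% were called with DOX in either direction. With ATRA, 1 of the listed genes rose and 3 fell, where 15.7% of all genes rose and 13.2% fell. HOXA9, a driver of KMT2A-rearranged leukemia, fell by 0.41 ± 0.11 (adjusted p = 0.0087, edgeR), and the nearby antisense RNA HOXA10-AS fell by 0.43 ± 0.09. HOXA5 rose in combined cells against ATRA by 0.56 ± 0.16 (adjusted p = 0.0489, edgeR), which was lost in 14 of 21 alternatives.

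MALAT1 and NEAT1 are long RNAs that stay in the nucleus; MALAT1 gathers in speckles that store splicing factors, and NEAT1 is the scaffold of paraspeckles. They lie next to each other on chromosome 11, at chr11:65497688-65506516 and chr11:65422774-65445540 on the plus strand. Both were lower on average with DOX, with a wide spread between replicates. MALAT1 had 1045, 1171 and 2259 CPM in untreated and 1180, 1229 and 1444 CPM in ATRA libraries. With DOX it had 1213, 536 and 620 CPM and in combined cells 1232, 873 and 519 CPM. Untreated replicate 3 stood far above all others, and DOX replicate 1 lay above untreated replicates 1 and 2, so the groups overlapped. The fall with DOX was 0.91 ± 0.29 on the log2 scale (adjusted p = 0.0406, edgeR). It was -0.48 without untreated replicate 3, -0.69 without DOX replicate 2 and -0.76 without DOX replicate 3, and none of these passed. DESeq2 gave -0.92 with adjusted p = 0.163.

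NEAT1 had 77.4, 92.3 and 170 CPM without either agent and 115, 104 and 126 CPM with ATRA. DOX libraries had 93.5, 41.7 and 76.0 CPM and combined ones 134, 109 and 73.3 CPM. Its change with DOX was -0.72 ± 0.26 and did not pass (adjusted p = 0.0663, edgeR). It passed with no filter on low counts (-0.70) and with a term for replicate number (-0.72). It also passed without untreated replicate 1 (-0.92), without DOX replicate 1 (-1.11) or without combined replicate 1. Combined against DOX it was 0.62 ± 0.26 and did not pass (adjusted p = 0.116, edgeR). That change was called with no filter (0.65) and with the term for mitochondrial ribosomal RNA (0.41). It was also called without DOX replicate 1 (1.00) or without combined replicate 3 (0.81). For ATRA against untreated the change was 0.01 ± 0.25, an interval of -0.52 to 0.53 that leaves room for a change of either sign.

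At both ends of the range, the levels of MALAT1 and NEAT1 went with the share of mitochondrial ribosomal RNA. Untreated replicate 3, with 4.60% of its counts there, was the highest library for both. DOX replicate 2, with 1.02%, was the lowest for NEAT1 and combined replicate 3, with 1.23%, the lowest for MALAT1, followed by DOX replicate 2. Between these ends the order differed: combined replicate 1, with 1.98%, had 134 CPM of NEAT1, more than untreated replicates 1 and 2 (77.4 and 92.3 CPM at 2.54 and 2.85%), and DOX replicate 1, with 2.18%, had more MALAT1 than both of them. With a term for that share in the fit, the change of MALAT1 with DOX was 0.49, of opposite sign and not called (adjusted p = 0.348), and that of NEAT1 was 0.46 (adjusted p = 0.429). With ATRA the same term gave 0.33 for MALAT1 (adjusted p = 0.0473) and 0.50 for NEAT1 (adjusted p = 0.00448), both called as higher. Since every DOX library had a smaller share than every untreated one, the term and DOX cannot be told apart in that comparison. What moves the share between libraries was not tested.

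**Figure D4:**
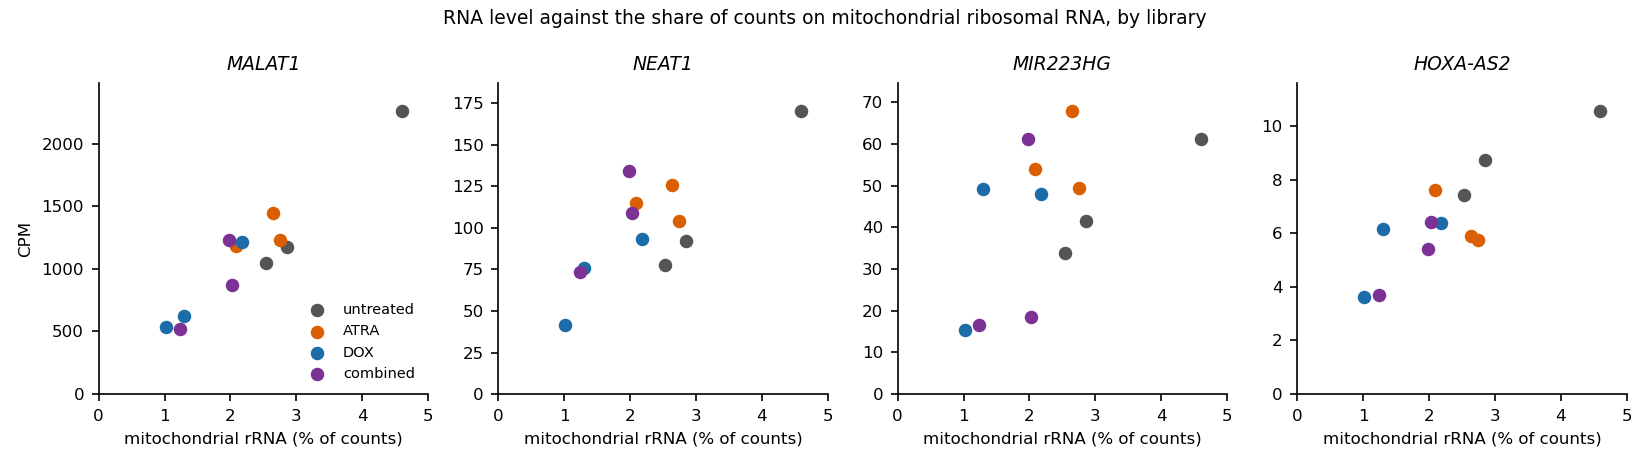
Level of MALAT1, NEAT1, MIR223HG and HOXA-AS2 (y axes, CPM) against the percentage of counts on mitochondrial ribosomal RNA (x axis) in each library, coloured by group. MALAT1 runs from 519 CPM at 1.23% to 2259 CPM at 4.60%, and the 2 libraries with the lowest share for DOX (1.02 and 1.30%) have 536 and 620 CPM.

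Of 12 genes for paraspeckle and speckle proteins, all tested, 0 rose and 2 fell with ATRA, at a median of -0.11, and 0 rose and 1 fell with DOX, at a median of 0.03; over all genes 13.2% fell with ATRA and 7.1% with DOX. The one that fell in both was SRRM2, a scaffold of nuclear speckles, by 0.30 ± 0.11 with ATRA and by 0.49 ± 0.11 with DOX, and both calls were lost without untreated replicate 3. Of 8 genes beside NEAT1 and MALAT1, 7 were tested. With DOX 0 passed by edgeR or DESeq2 and 3 had an unadjusted p under 0.05, while with ATRA 3 rose, at a list median of 0.37, where 15.7% of all genes rose. Among them were SLC25A45, a mitochondrial carrier (1.75 ± 0.29), and EHBP1L1 (0.37 ± 0.10). Of the MALAT1 exon bases, 396 face an antisense transcript, AP000769.2, which held 15 counts in all libraries together.

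GAS5 and SNHG1 carry box C/D small nucleolar RNAs, guides of ribosomal RNA modification, in their introns. Their spliced exons hold short reading frames and are degraded by nonsense-mediated decay when translated. Across the 12 libraries they varied less than the other members. GAS5 (chr1:173863900-173868882, minus strand) had 617, 571 and 601 CPM in untreated cells, against 579, 593 and 550 CPM with ATRA. With DOX it had 579, 695 and 718 CPM and with both agents 552, 573 and 577 CPM. DOX replicates 2 and 3 were its highest, and no comparison passed by edgeR with all libraries. The change was -0.06 ± 0.09 with ATRA (95% interval -0.24 to 0.13) and 0.15 ± 0.09 with DOX (-0.04 to 0.34). Combined against DOX it was -0.22 ± 0.09 (adjusted p = 0.0936, edgeR). For that comparison DESeq2 gave -0.23 with a call (adjusted p = 0.0427), and edgeR without DOX replicate 1 gave -0.31 with a call (adjusted p = 0.0129).

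SNHG1 (chr11:62851988-62855914, minus strand) had 91.3, 87.9 and 90.3 CPM in untreated and 77.4, 81.2 and 77.1 CPM in ATRA libraries. It had 83.9, 101 and 88.3 CPM with DOX and 76.1, 76.9 and 73.2 CPM in combined cells, so both groups with ATRA lay below both groups without it in every library. SNHG1 fell in combined cells against DOX by 0.28 ± 0.08 on the log2 scale (adjusted p = 0.0203, edgeR). The call was lost without DOX replicate 2 (-0.18, adjusted p = 0.201) and without any one combined replicate, and also with no filter on low counts (adjusted p = 0.156) and with only the groups compared (adjusted p = 0.0619). With ATRA against untreated the change was -0.19 ± 0.08 and did not pass (adjusted p = 0.0771).

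The other 20 small nucleolar RNA hosts, all tested, gave 0 rises and 7 falls with ATRA, at a median of -0.27, and 0 rises and 8 falls in combined cells against DOX, at a median of -0.38, where the medians over all genes were both -0.01. Over all genes, 13.2% fell and 15.7% rose with ATRA, and 8.24% fell and 10.7% rose in combined cells against DOX. With DOX 1 rose and 2 fell, where 8.08% of all genes rose and 7.1% fell. In combined cells against ATRA 0 of the 20 were called by edgeR or DESeq2 and 6 had an unadjusted p under 0.05, where 4.43% of all genes were called. The largest fall among those named was of SNHG14, the long host at the imprinted Prader-Willi locus, by 0.96 ± 0.14 with ATRA. EPB41L4A-AS1 fell by 0.63 ± 0.10 with ATRA and by 0.70 ± 0.10 in combined cells against DOX. Its values were 41.0, 39.1 and 40.8 CPM without either agent and 25.7, 27.1 and 25.5 CPM with ATRA. They were 43.5, 54.0 and 43.4 CPM with DOX and 28.8, 32.0 and 26.9 CPM with both, so groups with and without ATRA did not overlap. SNHG8 fell by 0.30 ± 0.08 and 0.54 ± 0.09 in the same comparisons, and TAF1D, which also encodes a factor of RNA polymerase I, changed by -0.17 ± 0.09 and fell by 0.50 ± 0.09.

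**Figure D5:**
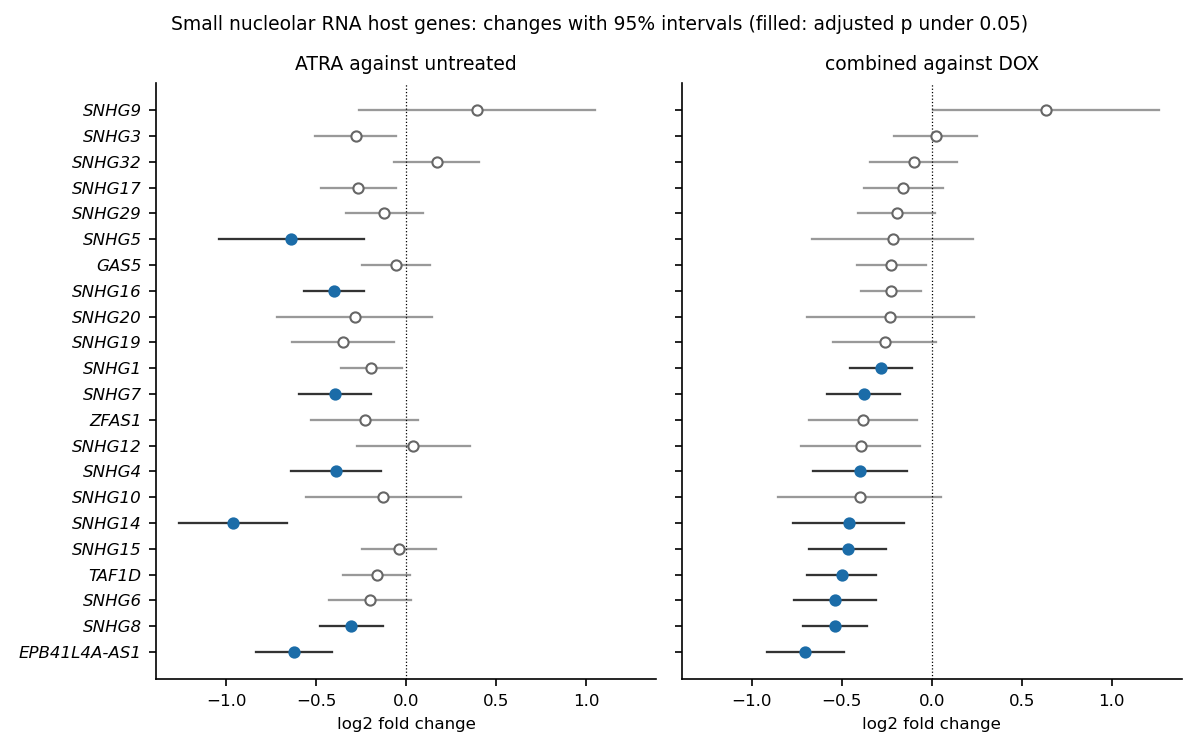
Log2 fold change (x axis) with 95% interval of GAS5, SNHG1 and the other 20 small nucleolar RNA host genes (y axis) for ATRA against untreated and for combined against DOX; filled points have an adjusted p under 0.05 over all genes tested. All filled points lie left of 0, and GAS5 is open in both panels.

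Of 10 nonsense-mediated decay factors, all tested, 1 rose and 1 fell with ATRA, and 1 rose and 2 fell in combined cells against DOX, beside the shares over all genes given above. SMG6, the endonuclease of the pathway, rose by 0.92 ± 0.09 and by 1.03 ± 0.10 in these comparisons, and UPF2, which bridges its core complex, fell by 0.29 ± 0.07 and 0.28 ± 0.07. SMG1, the kinase of UPF1, fell with DOX by 0.69 ± 0.16, a call lost with the term for mitochondrial ribosomal RNA (-0.13). Of 8 genes beside GAS5 and SNHG1, all tested, 0 rose and 1 fell with DOX, where 8.08% of all genes rose and 7.1% fell. The gene that fell, ZBTB37, encodes a zinc finger protein and starts 800 bases from GAS5 on the other strand. ZBTB37 had 43.8, 41.6 and 51.5 CPM in untreated and 34.5, 22.3 and 24.6 CPM in DOX libraries, and fell by 0.74 ± 0.15 (adjusted p = 0.0042, edgeR) while GAS5 was not called. That call too was lost with the mitochondrial term (-0.26). SLC3A2, the heavy chain of an amino acid transporter, starts 188 bases from SNHG1 on the other strand. It rose in combined cells against ATRA by 0.32 ± 0.09 (adjusted p = 0.0474, edgeR), a call lost in 14 of 21 alternatives, and SNHG1 changed by -0.06 ± 0.08 there. GAS5 shares 42 exon bases with GAS5-AS1 on the other strand, which held 4637 counts in all libraries.

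MIR155HG (chr21:25561909-25575168, plus strand), also called BIC, is the host of the microRNA whose sequence is shown above and which is known from B cell and macrophage activation. It was lower with ATRA. Untreated libraries had 7.92, 10.1 and 9.45 CPM and ATRA libraries 5.53, 6.48 and 6.27 CPM, with no overlap. DOX libraries had 7.08, 6.20 and 11.9 CPM and combined libraries 6.19, 4.42 and 3.14 CPM, the highest of these just under the lowest DOX library. MIR155HG fell with ATRA by 0.60 ± 0.22 on the log2 scale (adjusted p = 0.0442, edgeR). The value stayed between -0.68 and -0.52 with single libraries left out, but the adjusted p passed 0.05 without untreated replicate 2 or 3 or any one ATRA replicate. It also did with library size alone (0.070), after thinning to the smallest total (0.249) and with the term for mitochondrial ribosomal RNA (-0.49, adjusted p = 0.1003). Combined against DOX the change was -0.66 ± 0.24 (adjusted p = 0.057, edgeR), and -0.94 with a call without combined replicate 1. For that comparison DESeq2 gave -0.71 with a call (adjusted p = 0.0349), and edgeR with the mitochondrial term gave -0.72 with a call (adjusted p = 0.0241). DOX replicate 3, the highest value, rests on the shallowest library.

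Of 10 genes listed as neighbours or inducers of MIR155HG, all tested, 3 rose and 0 fell with ATRA, where 15.7% of all genes rose. All 3 are inducers: RELB, a subunit of NF-kB, rose by 0.99 ± 0.16, and JUNB and FOSB, of the AP-1 family, rose by 0.57 ± 0.11 and 2.09 ± 0.57. Their direction was thus opposite to that of MIR155HG in the same comparison. In combined cells FOSB ranged from 3.61 CPM in replicate 1 to 33.8 and 37.4 CPM in replicates 2 and 3.

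MIR223HG (chrX:66015461-66020422, plus strand) is the host of a microRNA that marks the granulocytic and monocytic lines. Its level varied widely between replicates. Untreated libraries had 33.9, 41.5 and 61.1 CPM and ATRA libraries 54.0, 49.4 and 67.9 CPM. DOX libraries had 47.9, 15.4 and 49.1 CPM and combined libraries 61.1, 18.4 and 16.5 CPM. DOX replicate 2 and combined replicates 2 and 3 had less than all other libraries, and their groups also held a library near the ATRA level. No comparison passed. The change was 0.31 ± 0.37 with ATRA (95% interval -0.46 to 1.08) and -0.41 ± 0.40 with DOX (-1.23 to 0.42). Combined against ATRA it was -0.79 ± 0.38 (adjusted p = 0.261, edgeR). Without combined replicate 1 it was -1.70 with adjusted p = 0.002, so that library decides the result.

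With a term for mitochondrial ribosomal RNA, the change of MIR223HG with ATRA was 0.83 and called (adjusted p = 0.0263, edgeR). The shares of that RNA in combined replicates 1, 2 and 3 were 1.98, 2.02 and 1.23%, and its part in the result was not tested further. Of 9 genes listed as neighbours or regulators of MIR223HG, 8 were tested. With ATRA, 4 rose and 1 fell, where 15.7% of all genes rose and 13.2% fell. SPI1 and CEBPA, transcription factors of myeloid maturation that act on this promoter, rose by 0.59 ± 0.08 and 0.54 ± 0.10, and NFIA, a known repressor of it, fell by 1.61 ± 0.21. NFIA had 39.6, 46.1 and 71.6 CPM in untreated and 17.2, 16.9 and 17.8 CPM in ATRA libraries, with no overlap, whereas MIR223HG itself gave no call. With DOX, 1 rose and 2 fell, where 8.08% of all genes rose and 7.1% fell. The neighbour VSIG4, at 2 CPM or less in every library, was among those that fell.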

How the data were processed

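Total RNA of 12 MOLM14 libraries was sequenced in paired-end mode, as the labels' protocols state. The authors deposited raw counts per gene, as whole numbers. The submitters' processing notes name FastQC, STAR, HTSeq and GRCh38. Versions, annotation release and strand setting are not given in the sources used here, so a gene and a partner on the other strand cannot be told apart. The table had 23 empty columns.

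Totals per library ran from 2685984 to 19358619 counts. edgeR 4.0.16 (R 4.3.3) kept 16104 genes by filterByExpr, scaled libraries by TMM and fitted 4 group means in 1 quasi-likelihood model, and p was adjusted by Benjamini-Hochberg over the 16104 genes, with 0.05 as threshold. Biological variation had a coefficient of 9.54%. Standard errors are log2 changes divided by the root of F. The fit was tested on simulated counts. Alternatives were other scalings, no filter, DESeq2 1.42.0, only the groups compared, a replicate block, thinning to the smallest total, a mitochondrial ribosomal RNA term and libraries left out.

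The members, the 9 related gene lists and the tests were chosen with earlier results of these data known. Named genes are the members, NRIP1, up to 3 called genes with the smallest adjusted p per list and comparison, annotated neighbours that overlap a member or start within 1000 bases of it on the other strand, and the 3 genes most like HOTAIRM1 and OLMALINC. INSIG1, some changes of list genes in a second comparison, and the libraries singled out were picked after their values were seen. Coordinates are from GENCODE 29; promoter windows, found for 7 of the 10 members, and microRNAs are from RefSeq GRCh38.p14. Some genes of the lists are not reported here.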

Additional observations from a re-analysis of the deposited data

Results flagged for a closer look

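The ATRA effect on OLMALINC differed between cells without and with DOX: the interaction was 0.99 ± 0.15 on the log2 scale, with a change of -1.02 in 3 libraries against 3 without DOX and of -0.03 in 3 against 3 with DOX. The difference is given as a description, since the RNA was put on the list with its values known, and it was 0.70 with every library thinned to the smallest total.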

How the results depend on the processing

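Each change of a member was recomputed with 12 alternatives that leave out 1 library and 9 others. Of 1031 such comparisons, 893 kept their direction and their side of the threshold, 42 lost a call, 32 gained one and 2 reversed. The other 62 were called in neither fit and differed in sign, 20 of them by more than the standard error. The 2 reversals were of MALAT1 with a mitochondrial ribosomal RNA term, 0.33 for ATRA (main value -0.22) and 0.49 for DOX (main value -0.91) against untreated.

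Counted over all 10 members, OLMALINC included although it is otherwise only described, the number called with ATRA, 2, was 1 with library size alone, 4 with only the groups compared, 1 after thinning, 5 with the mitochondrial term, and 1 without untreated replicate 3 and DOX replicate 3 together. For DOX, 3, it was 1 with library size alone, 1 with DESeq2, 1 after thinning, 0 with the mitochondrial term and 0 without that pair. For combined against ATRA, 1, which is OLMALINC, it was 3 with no filter. For combined against DOX, 1, it was 2 with no filter (SNHG1 not among them), 3 with DESeq2, 0 with only the groups compared and 3 with the mitochondrial term. For the interaction, 1, again OLMALINC, it was 2 with no filter and 0 after thinning. OLMALINC is also 1 of the 2 called with ATRA. Since it was put on the list with its values known, its calls here are no support. With single libraries left out, the numbers ran from 1 to 3, 0 to 5, 1 to 2, 0 to 3 and 1 to 1 in that order. The interaction needs all 4 groups, so it has no value with only the groups compared. The causes were not tested, except that thinning leaves fewer counts. For DOX against untreated and combined against ATRA, the mitochondrial share and DOX cannot be told apart.

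Over all genes, 4652 were called with ATRA (2695 after thinning), 2446 with DOX (1573 with only the groups compared, 1168 after thinning, 77 with the mitochondrial term, 169 without the pair), 713 for combined against ATRA (400 after thinning), 3054 for combined against DOX (1875 after thinning) and 43 for the interaction (24 with library size alone, 189 with no filter, 106 with DESeq2, 9 after thinning, 9 without the pair). With single libraries left out these ran from 3455 to 5344, 659 to 4326, 264 to 1028, 2195 to 3898 and 10 to 747.

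Over 18 pairs of libraries with the same replicate number, deviations from the group means correlated from -0.24 to 0.27, and 4 exceeded 0.1, so the numbers are not taken to pair the samples. The replicate block left the numbers of members called, OLMALINC included, at 2, 3, 1, 1 and 1. HOXA-AS3 was lost (-0.42, adjusted p = 0.067) and NEAT1 gained (-0.72, adjusted p = 0.0462) for DOX by edgeR. Depth limits HOTAIRM1, whose 12 libraries held 1 to 22 counts each.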
